A study of Homo sapiens with 18 samples.

Results

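Stanniocalcin 1 (STC1) and stanniocalcin 2 (STC2) are the 2 members of one gene family, and they were followed through all 6 groups of a study of HUVEC, primary endothelial cells grown from the human umbilical vein. They are 2 of the 18417 genes that 18 whole-transcript Affymetrix arrays measured here, and each is covered by 1 probe set (8149825 for STC1 and 8115851 for STC2). STC1 was selected on its measured level, which followed both the capture of the vesicles and the cell line they came from. Its differences between vesicle groups and against the controls are therefore given as a description with the model's standard error (SE) and no test. STC2 was taken along as the only other member of the family, and its differences were tested.

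The untreated group was HUVEC with nothing added, and the labels give no time for it. The bead group received beads with immunoglobulin G (IgG) alone, and the other 4 groups received extracellular vesicles (EVs), small membrane-bound particles released by cells, for 3 days. Their source was Jurkat, a leukaemic T cell line of human origin, or its mutant JinB8, in which the surface receptor CD47 is missing. They were immunocaptured by CD63, a tetraspanin found on exosomes, or by MHC class 1 (MHC1), so that the groups are Jurkat CD63+, Jurkat MHC1+, JinB8 CD63+ and JinB8 MHC1+, with 3 arrays each. The free text of 5 of the 6 JinB8 arrays carries a number other than 8 in the line name, but the name in brackets is JinB8 and was used. Per the labels' protocols the T cells were kept overnight in serum-free medium, and their conditioned media were pooled before the EVs were purified. JinB8 is 1 mutant line, so that the lack of CD47 and other traits of this line cannot be told apart. No label states whether the 3 arrays of a group stem from separate cultures, so that the p-values reflect the spread among these arrays, which may be only technical.

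The stanniocalcins are secreted glycoproteins that form disulfide-linked dimers. The first was found in fish as a hormone that lowers calcium, and in mammals both act locally rather than as circulating regulators of calcium. STC1 is made by endothelium, where VEGF is known to induce it, and both genes are known to respond to hypoxia. STC2 is also known as a target of the unfolded protein response through ATF4. Both proteins inhibit the pappalysins PAPP-A and PAPP-A2, proteases that release insulin-like growth factors (IGFs) from their binding proteins.

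The promoter of STC2 is shown because hypoxia and ATF4 targets are set beside it further on. It comprises the 250 bases before the RefSeq start, at chr5:173328415-173328664 of GRCh38.p14, minus strand, written 5′ to 3′. Capitals mark matches to the motifs searched.
STC2 promoter: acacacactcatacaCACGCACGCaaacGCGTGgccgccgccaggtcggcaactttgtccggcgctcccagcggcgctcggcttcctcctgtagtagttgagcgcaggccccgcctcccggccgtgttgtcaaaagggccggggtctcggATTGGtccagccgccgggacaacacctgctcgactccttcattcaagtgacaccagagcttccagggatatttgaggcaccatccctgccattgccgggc
The motifs searched on both strands were ACGTG and GCGTG, the core forms of the hypoxia response element, TGATGNAA, a core of the C/EBP-ATF response element, and CCAAT, the box bound by NF-Y. The form GCGTG occurred 3 times, starting 235, 231 and 222 bases before the start, and the first 2 of these, on the opposite strand, share 1 base. CCAAT occurred once, on the opposite strand, 100 bases before the start. ACGTG and TGATGNAA were not in these letters. Of 35116 RefSeq promoters of the same length, 32.2% held GCGTG, 32.0% CCAAT, 18.5% ACGTG and 3.14% TGATGNAA. A match is a description of the sequence, not a site.

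2 control arrays stood apart from the rest, and they touch both genes. The replicate numbers follow the order of the samples within each group, since the labels give none, so that equal numbers do not mark a pair. Untreated replicate 3 and bead replicate 3 had a median correlation with the other arrays of 0.649 and 0.636, against 0.947 to 0.992 for the remaining 16, and the spread of their values was compressed. The 12 endothelial markers (among them PECAM1, CDH5, VWF and TEK) averaged 9.23 to 9.45 on the log2 scale in the 12 EV arrays and up to 9.49 in the controls, but 7.20 and 6.30 in these 2 arrays. The 13 T cell markers averaged 4.14 to 4.69 in the EV arrays and 5.40 and 5.32 in the 2 discordant arrays. Ranges of the 10 fibroblast and smooth muscle markers were 4.90 to 5.47 in the EV arrays, with 5.87 and 5.44 in the discordant ones. Results that involve the controls are therefore given in all 18 arrays and in the 16 without these 2. Jurkat MHC1+ replicate 1 was intermediate, with a median correlation of 0.947. In cultured cells measured in bulk, fewer cells of a type and less RNA per cell cannot be told apart.

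STC1 was lowest in cells without vesicles. In untreated cells its 3 arrays read 6.66, 6.93 and 6.43 on the log2 scale of RMA (the authors' summary per probe set), with a mean of 6.67 ± 0.25 (SD, n = 3). With IgG beads they read 6.53, 6.66 and 6.94, with a mean of 6.71 ± 0.21. The ranges of the 2 control groups overlapped almost entirely. Discordant bead replicate 3 was the highest of the 6 control arrays and discordant untreated replicate 3 the lowest.

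All 12 EV arrays lay above all 6 control arrays. With Jurkat MHC1+ EVs the arrays read 7.38, 7.36 and 7.07 (mean 7.27 ± 0.17), so that the lowest of them was only 0.13 above the highest control, a separation that 103 genes (0.559%) had. With JinB8 MHC1+ EVs they read 7.68, 7.84 and 7.49 (mean 7.67 ± 0.17). Both MHC1+ groups had the wider spread of the EV groups, and the gap between them, 0.11, was smaller than their SDs. With Jurkat CD63+ EVs the arrays read 8.19, 8.28 and 8.21 (mean 8.23 ± 0.05). With JinB8 CD63+ EVs they read 8.78, 8.84 and 8.72 (mean 8.78 ± 0.06). The CD63+ groups were tight, and the gaps below each of them, 0.35 under Jurkat CD63+ and 0.43 under JinB8 CD63+, were larger than the SDs of both neighbours.

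The order was thus JinB8 CD63+, Jurkat CD63+, JinB8 MHC1+, Jurkat MHC1+ and then the controls, with no overlap between neighbours other than the 2 control groups. Of the 18417 genes, STC1 was the 1 gene with this full order, in the 18 arrays and in the 16. It was chosen for this pattern, so that the count is a description. Genes with every EV array above every control array numbered 10 (0.0543%), and those with every CD63+ array above every MHC1+ array numbered 35 (0.19%). All 6 JinB8 arrays did not lie above all 6 Jurkat arrays, since JinB8 MHC1+ stood below Jurkat CD63+. Within CD63 capture, JinB8 lay wholly above Jurkat for 791 genes (4.29%) and, within MHC1 capture, for 2859 genes (15.5%), so that the separation by line alone was common among all genes. Jurkat CD63+ lay wholly above JinB8 MHC1+ for 2238 (12.2%).

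**Figure D1:**
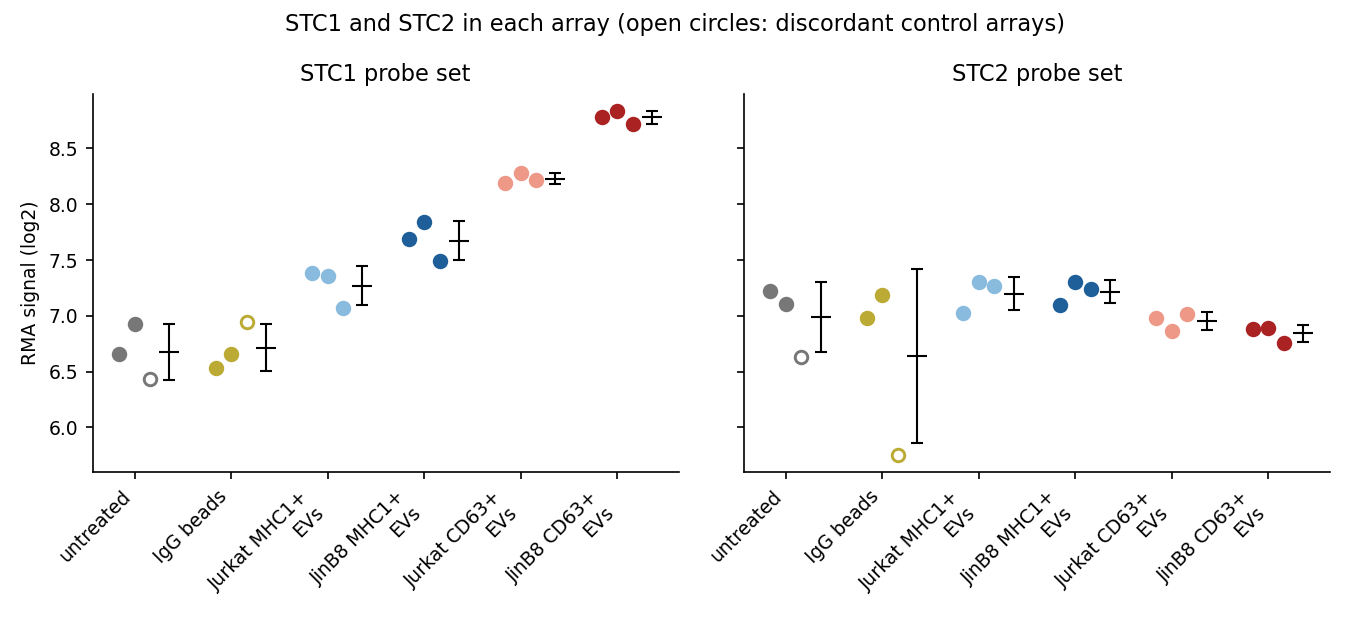
RMA signal (log2) of STC1 (left) and STC2 (right) in each of the 18 arrays by group, with the group mean ± SD (n = 3) as a black bar beside the points. Open circles are the 2 discordant control arrays. STC1 climbs from 6.43 to 6.94 in the controls to 8.72 to 8.84 with JinB8 CD63+ EVs, while STC2 stays between 6.63 and 7.31 except in bead replicate 3, at 5.75.

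As differences from the bead group, in 18 arrays and 3 against 3, STC1 was 0.56 ± 0.18 (SE of the model) higher with Jurkat MHC1+ EVs and 0.96 ± 0.18 higher with JinB8 MHC1+ EVs. It was 1.51 ± 0.18 higher with Jurkat CD63+ EVs and 2.06 ± 0.18 with JinB8 CD63+ EVs. On a linear scale these are 1.47, 1.94, 2.86 and 4.18-fold. The 4 differences share the same bead arrays. Without the 2 discordant controls they were 0.67 ± 0.14, 1.08 ± 0.14, 1.63 ± 0.14 and 2.18 ± 0.14. The mean over the 4 EV groups was 1.27 ± 0.14 in 18 arrays, 1.39 ± 0.12 in 16 and 0.83 ± 0.27 once the 18 arrays were quantile-normalized a further time. Against untreated cells the mean of the 4 EV groups was 1.31 ± 0.14 higher in 18 arrays and 1.19 ± 0.12 in 16.

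The difference of STC1 by capture was larger than that by line, a contrast between the 2 that was not tested. CD63+ minus MHC1+ was 1.03 ± 0.13 over both lines in 18 arrays (6 against 6), or 2.04-fold, with 0.96 ± 0.18 for Jurkat EVs and 1.10 ± 0.18 for JinB8 EVs. JinB8 minus Jurkat was 0.48 ± 0.13 over both captures, or 1.39-fold, with 0.55 ± 0.18 among CD63+ and 0.40 ± 0.18 among MHC1+ EVs. The difference between the 2 capture effects was 0.15 ± 0.25 (95% interval -0.39 to 0.68), and in 16 arrays 0.15 ± 0.18 (-0.23 to 0.53). STC1 was selected on these same groups, so that the values and intervals are a description. Whether capture had an equal effect in the 2 lines was not tested. The size of this difference depended on scaling: it was 0.50 after quantile normalization of the arrays again and -0.039 after centring on array medians.

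Beads alone are the one contrast of STC1 that its selection did not use. STC1 differed by 0.04 ± 0.18 between beads and untreated cells (3 against 3; limma adjusted p = 1.00, 95% interval -0.34 to 0.42). In the 16 arrays the difference was -0.20 ± 0.15 (2 against 2; limma adjusted p = 1.00, interval -0.53 to 0.13). The direction turned with the discordant arrays. Both intervals ended, at 0.42 and 0.13, below the differences of the CD63+ groups from beads. Those belong to the pattern for which STC1 was selected, so that the comparison is a description. limma called 0 of 18417 genes (0%) in this contrast in either set of arrays, and 204 in 18 arrays and 188 in 16 had an unadjusted p under 0.05.

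**Figure D2:**
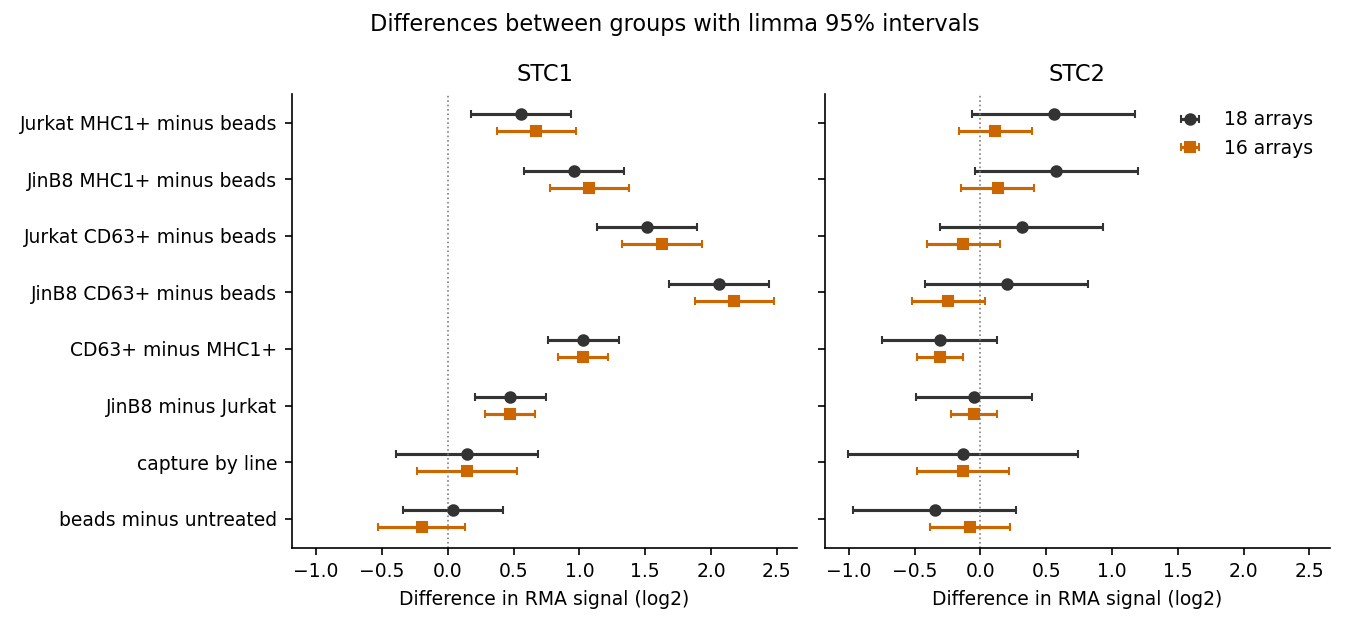
Differences in RMA signal (log2, horizontal axis) of STC1 (left) and STC2 (right) with 95% limma intervals, from all 18 arrays (circles) and from 16 arrays (squares). The STC1 differences against beads lie between 0.56 and 2.18. For STC2 the interval of CD63+ minus MHC1+ in 16 arrays, at -0.31 over both lines, excludes 0, but the limma adjusted p is 0.63. In 18 arrays that interval, -0.75 to 0.13, includes 0.

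STC2 had another order of groups than STC1. In untreated cells it read 7.22, 7.10 and 6.63, with a mean of 6.99 ± 0.31 (SD, n = 3). With beads it read 6.98, 7.19 and 5.75, with a mean of 6.64 ± 0.78. In both control groups the lowest value was that of the discordant array. With Jurkat MHC1+ EVs it read 7.03, 7.30 and 7.27 (mean 7.20 ± 0.15), and with JinB8 MHC1+ EVs 7.10, 7.31 and 7.24 (mean 7.22 ± 0.11). With Jurkat CD63+ EVs it read 6.98, 6.87 and 7.02 (mean 6.96 ± 0.08), and with JinB8 CD63+ EVs 6.88, 6.89 and 6.75 (mean 6.84 ± 0.08). The order among the EV groups was JinB8 MHC1+ and Jurkat MHC1+, which overlapped, then Jurkat CD63+ and JinB8 CD63+, which overlapped slightly. The concordant controls, at 6.98 to 7.22, overlapped both MHC1+ groups and the Jurkat CD63+ group.

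For STC2 the 4 EV groups together were 0.41 ± 0.23 above the beads in 18 arrays (12 against 3; limma adjusted p = 0.52, 95% interval -0.08 to 0.90). Without the 2 discordant arrays the value was -0.03 ± 0.11 (12 against 2; limma adjusted p = 1.00, interval -0.26 to 0.20), so that the positive difference came with bead replicate 3. In this comparison limma called 1 gene (0.00543%) in 18 arrays and 8 (0.0434%) in 16. Against untreated cells STC2 was at 0.07 ± 0.23 in 18 arrays (limma adjusted p = 0.84), where 1 gene (0.00543%) was called, and -0.11 ± 0.11 in 16 (limma adjusted p = 1.00), where 6 (0.0326%) were. Beads differed from untreated cells by -0.35 ± 0.29 in 18 arrays and -0.08 ± 0.14 in 16 (limma adjusted p = 1.00 in both).

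By capture, STC2 went the other way from STC1. All 6 CD63+ arrays, at 6.75 to 7.02, lay below all 6 MHC1+ arrays, at 7.03 to 7.31, as did those of 26 genes in all (0.141%). The lowest MHC1+ array was the intermediate Jurkat MHC1+ replicate 1. The difference CD63+ minus MHC1+ was -0.31 ± 0.20 in 18 arrays (6 against 6; limma adjusted p = 1.00) and did not pass, in a contrast where 2 genes (0.0109%) did. In 16 arrays it was -0.31 ± 0.08 (95% interval -0.48 to -0.13), or 0.808-fold, with an unadjusted p of 0.0019 and a limma adjusted p of 0.63, and 4 genes (0.0217%) passed. In 15 arrays, also without Jurkat MHC1+ replicate 1, the limma adjusted p was 0.19, and 13 genes (0.0706%) passed. Array weights were also used, from an algorithm chosen after limma's default had not converged. With them in place of left-out arrays the difference passed, at -0.35 ± 0.07 (limma adjusted p = 0.019), in a setting where 149 of the 18417 genes did. It was -0.24 ± 0.12 for Jurkat and -0.37 ± 0.12 for JinB8 EVs in 16 arrays, and the difference of these was -0.13 ± 0.16 (limma adjusted p = 0.55), in a contrast with 3 genes (0.0163%) called in 16 arrays and 0 (0%) in 18.

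By source line no difference of STC2 was resolved. JinB8 minus Jurkat was -0.05 ± 0.20 in 18 arrays (limma adjusted p = 1.00) and -0.05 ± 0.08 in 16 (limma adjusted p = 0.87, 95% interval -0.22 to 0.13). The interval in 16 arrays leaves out a difference as large as the 0.48 of STC1. In that contrast limma called 0 genes (0%) in 18 arrays, where 130 had an unadjusted p under 0.05, and 10 (0.0543%) in 16.

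Across the 12 EV arrays the 2 genes had a Pearson's r of -0.83 and a Spearman's rho of -0.80, given as a description, since arrays of a group share their treatment. Over 16 arrays r was -0.65, and over all 18 it was -0.0028, where the discordant arrays hold low STC2 and control-like STC1. The within-group SD of STC1 was 0.17 in 18 arrays and 0.13 in 16. That of STC2 was 0.35 and 0.11. Beside them, the median over all genes was 0.43 in 18 arrays and 0.20 in 16.

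**Figure D3:**
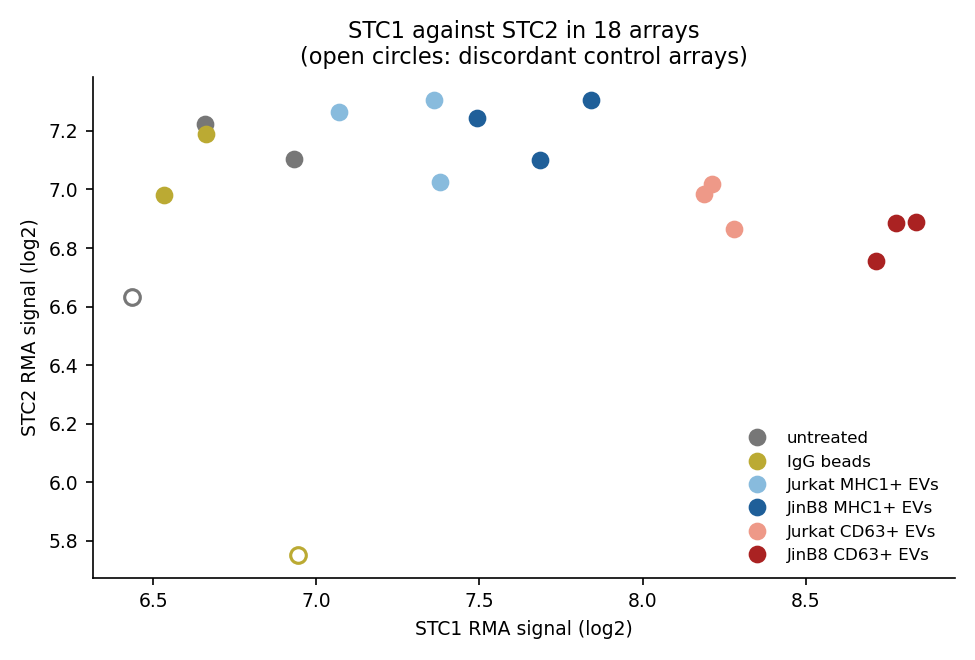
STC1 (horizontal) against STC2 (vertical) in RMA signal (log2), 1 point per array, coloured by group, with the 2 discordant control arrays as open circles. The 6 CD63+ arrays sit at the lower right, with STC1 at 8.19 or above and STC2 at or below 7.02, and the 6 MHC1+ arrays above and to the left of them.

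The genes with the pattern most like STC1 were sought over all genes, by Pearson's r across arrays, as a description. Over 18 arrays they were ABCG1, a cholesterol exporter (r = 0.85), HYAL2, a hyaluronidase (0.81), NRROS, a binding partner of latent TGF-beta (0.77), KLF4, a transcription factor of quiescent endothelium (0.77), and PGLS, an enzyme of the pentose phosphate pathway (0.77). Over 16 arrays they were the precursor MIR135A2 (0.89), NDRG1, a hypoxia-inducible gene (0.87), SREBF2, the master regulator of cholesterol synthesis (0.86), ABCG1 (0.85) and BHLHE40, a repressor of the clock that hypoxia induces (0.84). MIR135A2 spanned only 2.65 to 3.00 in the 16 arrays, near the bottom of the scale, and its r over 18 arrays was 0.21. ABCG1 was the 1 gene in both sets of 5.

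In EV groups minus beads in 16 arrays, none of these genes rose as much as STC1, which was itself selected for its pattern. Over all genes the difference of STC1 was the highest there, but at percentile 97.5 in 18 arrays. ABCG1 averaged 6.69 ± 0.07 in the 2 concordant bead arrays, 6.81 ± 0.02 with Jurkat MHC1+, 6.98 ± 0.17 with JinB8 MHC1+ and 7.17 ± 0.19 with JinB8 CD63+ EVs (SD, n = 2 for the beads and 3 for the EV groups), and its 3 Jurkat CD63+ arrays lay between 6.95 and 7.08. The group means had the order of STC1, but the arrays of each EV group overlapped those of its neighbours in that order. NDRG1 averaged 8.98 with beads, 9.12 with Jurkat MHC1+, 9.36 with JinB8 MHC1+, 9.56 with Jurkat CD63+ and 9.58 with JinB8 CD63+ EVs, so that the CD63+ groups did not separate by line. SREBF2 averaged 8.14 with beads and 8.50 to 8.81 in the EV groups, with Jurkat MHC1+ at 8.59 above JinB8 MHC1+ at 8.50. In 16 arrays the mean difference between EV groups and beads was 0.30 ± 0.12 for ABCG1, 0.42 ± 0.13 for NDRG1, 0.47 ± 0.16 for KLF4 and 0.51 ± 0.11 for SREBF2 (SE), against 1.39 ± 0.12 for STC1. These are descriptions, since the genes were chosen for their likeness to STC1.

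**Figure D4:**
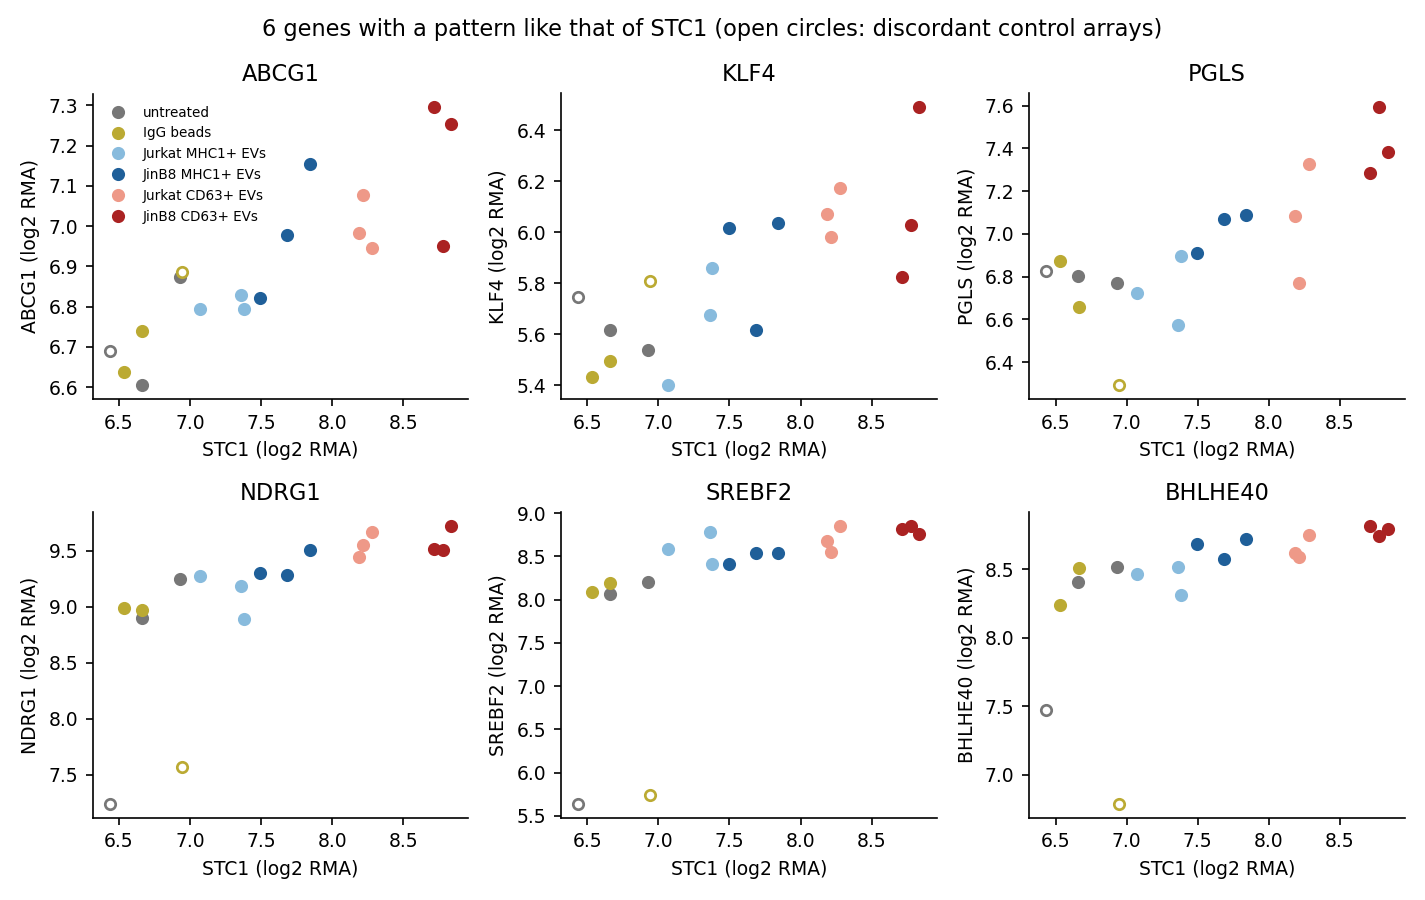
RMA signal (log2) of 6 genes (vertical) against that of STC1 (horizontal), 1 point per array, coloured by group, with the discordant control arrays as open circles. ABCG1, KLF4 and PGLS are among the 5 genes most like STC1 in 18 arrays, and NDRG1, SREBF2 and BHLHE40, which read low in the discordant arrays, among those in 16.

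For STC2, the 5 most similar genes over 18 arrays were PPIB, a chaperone of the endoplasmic reticulum (r = 0.94), NCS1, a calcium sensor (0.94), MYC (0.94), LRRC8C, an anion channel subunit (0.93), and CLDN11, a claudin (0.93). In bead replicate 3, the array with the lowest STC2, each of these 5 genes was also at its lowest of all 18 arrays, and over 16 arrays the same r ranged from 0.67 to 0.76. Over 16 arrays the most similar were RNF4, a ubiquitin ligase (0.79), EDN1, the vasoconstrictor endothelin 1 (0.76), CLDN11 (0.76), the chemokine CCL3 (0.76) and POFUT4, a fucosyltransferase (0.75). CD63+ minus MHC1+ was -0.42 ± 0.08 for EDN1 and -0.59 ± 0.12 for CLDN11 (SE) in the 16 arrays, a direction that follows from their choice by likeness to STC2 and was not tested.

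The genes of the axis on which stanniocalcins act came next. Of the 14 measured genes of the IGF and PAPP-A axis, limma called 0 in EV groups minus beads, CD63+ minus MHC1+, JinB8 minus Jurkat and beads minus untreated, in 18 and in 16 arrays. Of all 18417 genes it called 1, 2, 0 and 0 in 18 arrays (0.00543%, 0.0109%, 0% and 0%). In 16 arrays it called 8, 4, 10 and 0 (0.0434%, 0.0217%, 0.0543% and 0%). A count of 0 in this and the following short lists is near these shares and is no result about the lists. At an unadjusted p under 0.05 the list held 0, 0, 1 and 1 in 18 arrays and 2, 1, 3 and 0 in 16. Over all 18417 genes the counts were 705, 74, 130 and 204 in 18 arrays (3.83%, 0.402%, 0.706% and 1.11%) and 592, 773, 1200 and 188 in 16 (3.21%, 4.2%, 6.52% and 1.02%). PAPPA, which encodes PAPP-A, was at -0.26 ± 0.16 against beads in 18 arrays and -0.39 ± 0.15 in 16 (limma adjusted p = 0.52 and 1.00). PAPPA2 was at -0.09 ± 0.23 and, in 16 arrays, at 0.30 ± 0.12 (limma adjusted p = 0.80 and 1.00), so that its sign depended on the discordant arrays. IGFBP4, the main substrate of PAPP-A, was at 0.39 ± 0.40 and 0.01 ± 0.12. IGFBP5, another substrate, was at -0.33 ± 0.09 in JinB8 minus Jurkat in 16 arrays (limma adjusted p = 0.57). The median of the list in EV groups minus beads was -0.11 in 18 arrays and 0.015 in 16, beside -0.06 and 0.015 over all genes.

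Calcium and phosphate handling showed no called member either, 0 of 21 in each of the 4 comparisons and both sets of arrays, with 1, 0, 0 and 0 at an unadjusted p under 0.05 in 18 arrays and 1, 1, 0 and 0 in 16. Of all genes, 3.83%, 0.402%, 0.706% and 1.11% had such a p in 18 arrays and 3.21%, 4.2%, 6.52% and 1.02% in 16. At most 0.0543% of all genes were called in any of these comparisons. ORAI3, a subunit of store-operated calcium channels, was at 0.39 ± 0.14 in EV groups minus beads in 18 arrays and 0.49 ± 0.13 in 16 (limma adjusted p = 0.52 and 0.61). It passed with array weights, at 0.43 ± 0.09 (limma adjusted p = 0.024), a setting that called 88 of the 18417 genes in this comparison. STIM1, the calcium sensor of the endoplasmic reticulum, was at 0.83 ± 0.53 and -0.13 ± 0.14 in 18 and 16 arrays. SLC20A1, a phosphate transporter, was at 1.13 ± 0.60 and 0.03 ± 0.18, and the mitochondrial carrier UCP2 at -0.11 ± 0.19 and 0.09 ± 0.17. Untreated arrays do not enter this difference, so that the large values of STIM1 and SLC20A1 were present only with bead replicate 3 included. The same holds for the median of the list, 0.39 in 18 arrays and -0.017 in 16, beside -0.06 and 0.015 over all genes.

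Of the 22 measured genes of the VEGF response, 0 were called in any of the 4 comparisons, with 2, 1, 0 and 1 at an unadjusted p under 0.05 in 18 arrays and 2, 3, 1 and 0 in 16. The shares of all genes with such a p in these comparisons were 3.83%, 0.402%, 0.706% and 1.11% in 18 arrays and 3.21%, 4.2%, 6.52% and 1.02% in 16. At most 0.0543% of all genes were called in any of them. KLF4 was the highest member in both vesicle contrasts of the 16 arrays, and CD63+ minus MHC1+ was 0.33 ± 0.12 for it. ADAMTS1, a metalloprotease, was at 0.28 ± 0.09 (limma adjusted p = 0.93) and the phosphatase DUSP4 at 0.21 ± 0.08 (limma adjusted p = 1.00) in the same contrast. The receptor KDR was at 0.11 ± 0.10 and the ligand VEGFA at -0.07 ± 0.10. Medians in 16 arrays were 0.05 in EV groups minus beads and 0.06 in CD63+ minus MHC1+, beside 0.015 and 0.0053 over all genes.

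The hypoxia genes, 24 measured, held 0 called members in the 4 comparisons, with 2, 0, 0 and 0 at an unadjusted p under 0.05 in 18 arrays and 1, 1, 0 and 0 in 16. Beside these counts stand 3.83%, 0.402%, 0.706% and 1.11% of all genes in 18 arrays and 3.21%, 4.2%, 6.52% and 1.02% in 16. At most 0.0543% of all genes were called in any of the 4 comparisons. NDRG1 was the 1 member behind both counts in 16 arrays, at 0.42 ± 0.13 in EV groups minus beads and 0.33 ± 0.10 in CD63+ minus MHC1+, and it had also been chosen by likeness to STC1. ADM, the vasodilator adrenomedullin, was at 0.01 ± 0.17 and -0.20 ± 0.13 in these contrasts. In EV groups minus beads the median of the list was 0.35 with 16 of 24 positive in 18 arrays and -0.06 with 11 of 24 positive in 16, so that its direction turned with bead replicate 3. In CD63+ minus MHC1+ it was -0.04 with 10 of 24 positive. In JinB8 minus Jurkat it was 0.11 with 16 of 24 positive, beside -0.02 over all genes. CA9 was not among the genes with a probe set of their own.

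Of the 26 genes of the integrated stress and unfolded protein response, the pathway known to drive STC2, 0 were called in the 4 comparisons. Among all genes, at most 0.0543% were called in any of these comparisons in 18 or 16 arrays. The shares of all genes with an unadjusted p under 0.05 were 3.83%, 0.402%, 0.706% and 1.11% in 18 arrays. In 16 arrays these shares were 3.21%, 4.2%, 6.52% and 1.02%. Of the list, 2, 0, 1 and 1 members had such a p in 18 arrays and 3, 0, 7 and 0 in 16. The 7 were all higher with JinB8 EVs, among them the amino acid synthesis genes ASNS, at 0.50 ± 0.14 (limma adjusted p = 0.66), and PSAT1, at 0.63 ± 0.24 (limma adjusted p = 0.75), and the transcription factors CEBPG and ATF3. PSAT1, the largest difference of the list here, is named outside the rule for naming genes given below. ATF3 passed with array weights, at 0.38 ± 0.08 (limma adjusted p = 0.048), a setting that called 74 of the 18417 genes in this comparison. In the same contrast 1200 of the 18417 genes (6.52%) had an unadjusted p under 0.05, the median of the list was 0.12 with 19 of 26 positive, and the median of all genes was -0.02. STC2 was at -0.05 ± 0.08 there. In EV groups minus beads the list had a median of 0.28 in 18 arrays and 0.03 in 16. In JinB8 minus Jurkat in 16 arrays, DDIT3 and TRIB3, mediators of the response to stress, were at 0.12 ± 0.17 and 0.07 ± 0.10.

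**Figure D5:**
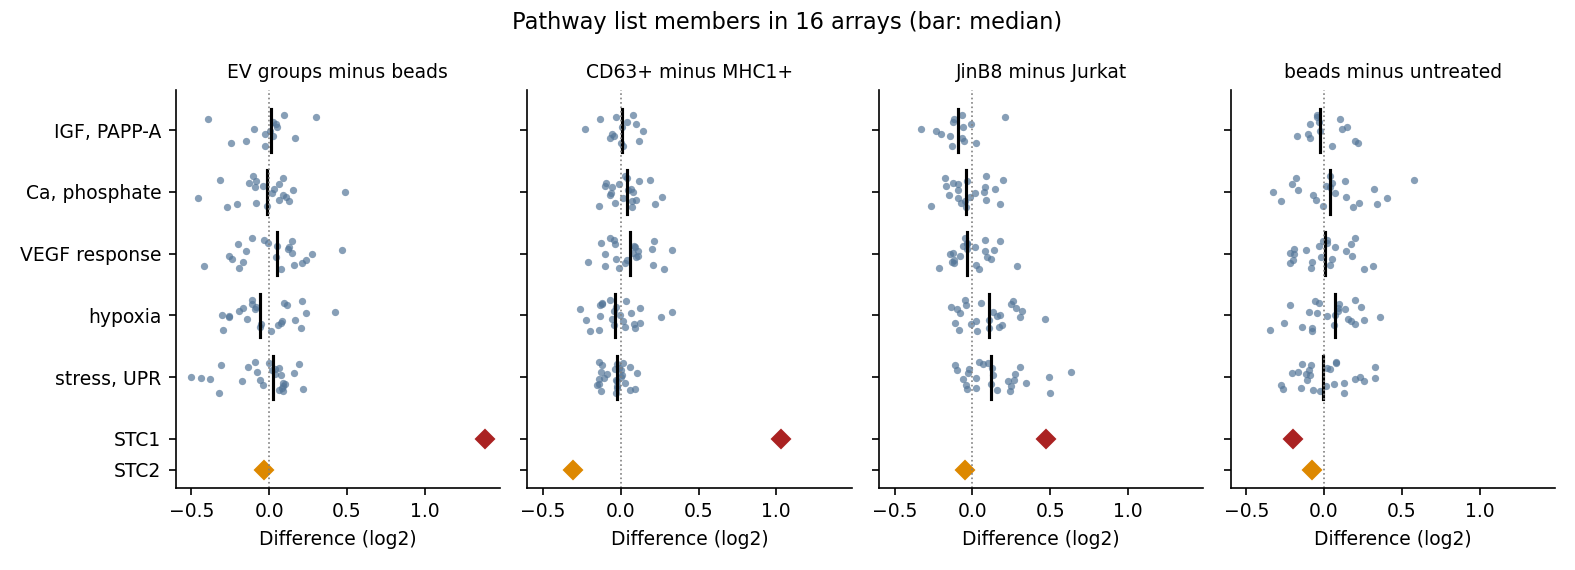
Differences (log2, horizontal axis) of every measured member of 5 gene lists in 4 comparisons of the 16 arrays, with the list median as a bar, and STC1 and STC2 as diamonds below. In EV groups minus beads and in CD63+ minus MHC1+ STC1, at 1.39 and 1.03, lies beyond every list member, the highest of which are at 0.49 and 0.33. In JinB8 minus Jurkat STC1 is at 0.48, below the highest member of the stress list, at 0.63. STC1 was selected for its differences between vesicle groups and from the controls, so that its place beside the lists is a description.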

How the data were processed

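RNA of HUVEC in 6 groups of 3 was measured on 18 whole-transcript Affymetrix arrays. Per the submitters' processing notes, the authors used RMA in Affymetrix Expression Console, whose version is not given in the sources used here. This method subtracts background, equalizes the distributions of the arrays and combines the probes of a set. The deposited values were read as log2 signal, since their range fits that scale and no label states it. Of 33297 probe sets, 12083 had no gene symbol and 1754 had several, and both were left out. The probe set with the highest mean was kept for each of 18417 genes. No filter on level was used.

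The linear model had 1 mean for each group and used limma 3.58.1 under R 4.3.3 on the 18 arrays (lmFit, eBayes; two-sided moderated t), with p-values adjusted by Benjamini and Hochberg over all genes and a threshold of 0.05. The script was tested on simulated data. The small number of arrays limits the precision. Figures were drawn with matplotlib 3.10.9.

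The members, lists, other settings and the rule for naming genes were chosen with earlier results of these data known. The rule names, beside both members, the 5 genes most correlated with each in 18 and in 16 arrays, list members called or with the smallest p, and 12 genes set by name, of which those with a value are given in part. The labels name no batch, and an effect of batch was not tested.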

Additional observations from a re-analysis of the deposited data

How the results depend on the processing

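The other settings were 16 arrays, 15 arrays, trend and robust options of limma, quantile normalization again, centring on array medians, leaving out the lowest 25% of genes, all probe sets tested, only the groups compared, array weights, and each of the 18 arrays left out in turn. limma's default array weights gave 1 array a weight of 695 without converging, so its gene-by-gene algorithm was used, a choice made after seeing this. No paired analysis was possible because the labels give no replicate numbers.

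STC1 in EV groups minus beads was 1.27 and moved to 0.83 after quantile normalization again; it ranged from 1.18 to 1.39 with 1 array left out. Its capture difference ranged from 0.99 to 1.06 over the other settings and from 0.98 to 1.07 with 1 array left out, and its line difference from 0.40 to 0.52 and from 0.43 to 0.52. The capture by line value of STC1, 0.15, moved to 0.50 after quantile normalization again, turned to -0.039 after centring, and ranged from 0.06 to 0.25 with 1 array left out. STC1 in beads minus untreated, 0.04, turned to -0.20 in 16 arrays, -0.20 in 15 and -0.087 with array weights, and ranged from -0.082 to 0.17 with 1 array left out, negative without untreated replicate 3 or bead replicate 3; the lowest adjusted p over all these settings was 0.74.

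STC2 in EV groups minus beads, 0.41, turned to -0.032 in 16 arrays, -0.011 in 15 and -0.035 with array weights. It ranged from -0.032, without bead replicate 3, to 0.69 with 1 array left out. STC2 in beads minus untreated ranged from -0.62 to 0.10 with 1 array left out, positive without bead replicate 3. Its capture by line value, -0.13, turned to 0.19 after quantile normalization again. Its capture difference was negative in every setting, from -0.35 to -0.28, and passed only with array weights (-0.35). The count of pathway list members called, 0, became 1 with array weights in EV groups minus beads and 1 in JinB8 minus Jurkat, and stayed 0 otherwise.

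Genes called in all, in EV groups minus beads, CD63+ minus MHC1+ and JinB8 minus Jurkat, were 1, 2 and 0 in 18 arrays, 8, 4 and 10 in 16, 28, 13 and 16 in 15, and 88, 149 and 74 with array weights. With the trend and robust options they were 0, 1 and 0, and after renewed quantile normalization the first 2 were 0. The first was also 0 without bead replicate 1 or 2, and the third was 4 with only the groups compared. The causes of these changes were not tested.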

Other observations

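Several genes ran opposite to STC1 over the 16 arrays, a set named after its values were seen. TGFBI, which encodes a secreted matrix protein, had r = -0.97 with STC1, PVR, an adhesion receptor, -0.95, KRT7, a keratin, -0.93, RAB3B, a regulator of secretion, -0.92, and TGM2, a transglutaminase, -0.91. TGFBI averaged 8.75 ± 0.03 (SD, n = 2) in the concordant untreated arrays and 8.75 ± 0.08 (n = 2) with beads. With EVs it averaged 8.43 ± 0.11 (Jurkat MHC1+), 8.24 ± 0.05 (JinB8 MHC1+), 7.98 ± 0.06 (Jurkat CD63+) and 7.71 ± 0.06 (JinB8 CD63+), the order of STC1 turned round. Its r with STC1 over 18 arrays was -0.47, and TGFBI read 7.43 and 7.38 in the 2 discordant control arrays. That of PVR was 0.17 and that of TGM2 0.22. Its difference CD63+ minus MHC1+ was -0.49 ± 0.07 in the 16 arrays and -0.49 ± 0.25 in 18 (SE, 6 against 6), given with no test, since the gene was picked for its relation to STC1. These correlations describe arrays that share groups, and no test of a link between the genes was made.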
